A study of Mus musculus with 13 samples.

Results

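The genes described here are 34 mouse genes that mark the nephron beyond the proximal tubule, that is the thick ascending limb of the loop of Henle, the distal convoluted and connecting tubule, and the principal and intercalated cells of the collecting duct. They were chosen by name for the segment they mark, with no threshold on a measured value but with earlier results of these data known. All 34 were present among the 35967 gene symbols measured. RNA was sequenced from isolated glomeruli of wild-type Balb/c mice, 1 library per sample. Control mice (n = 5) received an intraperitoneal injection of 2.0 mg of rabbit preimmune IgG, and mice with experimental membranous nephropathy (MN mice) received the same amount of rabbit IgG against THSD7A, a protein of the podocyte foot process, and were killed at day 1 (n = 4) or day 5 (n = 4). Controls of both days formed 1 group, and the labels do not give the day of each control, so the day cannot be told apart from the mouse within that group. The study's methods describe adult male mice and glomeruli collected with magnetic beads that were perfused through the renal artery. The kidney was then digested with collagenase or broken up mechanically, and sieved. The methods name the mechanical route for immunoprecipitation and do not name the route of the sequenced glomeruli. The model is passive, since the antibody was made in rabbits.

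These segments carry out the last steps of urine formation. The thick ascending limb takes up sodium, potassium and chloride through the NKCC2 transporter (*Slc12a1*) and secretes uromodulin (*Umod*). The distal convoluted tubule takes up sodium and chloride through the thiazide-sensitive transporter NCC (*Slc12a3*) and holds the calcium-binding protein parvalbumin (*Pvalb*), while the connecting tubule is rich in calbindin (*Calb1*). Principal cells move water through aquaporin-2 (*Aqp2*) and sodium through the epithelial sodium channel, and intercalated cells move acid and base. None of these cells belongs to the glomerular tuft, although the end of the thick ascending limb touches the vascular pole of its own glomerulus and the distal convoluted tubule begins just beyond it.

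The promoters of the 3 transporters used below to represent the thick ascending limb, the distal convoluted tubule and the principal cell are shown because they define the segments that are compared. Each line is the 250 bases before the annotated transcript start in GRCm39, written 5′ to 3′ on the strand of the gene. They lie at chr2:124994175-124994424 (plus strand) for *Slc12a1*, at chr8:95055579-95055828 (plus strand) for *Slc12a3* and at chr15:99476686-99476935 (plus strand) for *Aqp2*. The first 2 windows hold no annotated exon, and 13 bases of the third lie in an exon of *Gm34765*. Capitals mark a forkhead motif in *Slc12a1* (TGTTTAC, starting 133 bases before the start), a TATA box in *Slc12a3* (TATAAA, 25 bases before) and the short form of a cAMP response element in *Aqp2* (CGTCA, 210 bases before).
Slc12a1: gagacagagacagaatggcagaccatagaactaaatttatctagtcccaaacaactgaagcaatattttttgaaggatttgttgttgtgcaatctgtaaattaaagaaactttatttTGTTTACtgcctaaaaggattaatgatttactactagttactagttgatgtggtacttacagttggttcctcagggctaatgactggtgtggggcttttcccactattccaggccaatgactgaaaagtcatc
Slc12a3: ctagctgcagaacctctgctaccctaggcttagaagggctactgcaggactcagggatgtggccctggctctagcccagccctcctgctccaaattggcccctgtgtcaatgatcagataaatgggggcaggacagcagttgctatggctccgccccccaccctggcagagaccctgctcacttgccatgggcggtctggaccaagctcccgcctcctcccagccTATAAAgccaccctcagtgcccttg
Aqp2: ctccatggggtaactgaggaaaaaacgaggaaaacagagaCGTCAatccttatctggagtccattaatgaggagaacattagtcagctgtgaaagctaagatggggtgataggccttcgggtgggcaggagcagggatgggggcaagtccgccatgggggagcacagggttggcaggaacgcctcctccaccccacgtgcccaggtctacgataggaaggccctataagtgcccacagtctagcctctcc
Motifs were searched on both strands in the same window of 21722 protein-coding genes and of all 34 genes described here. TATAAA was found in 7 of the 34 promoters (20.6%) and in 11.9% of all promoters, the forkhead motif GTAAACA in 3 (8.82%) and 2.73%, TGACG in 5 (14.7%) and 18%, the nuclear receptor motif AAGGTCA in 3 (8.82%) and 3.93%, and GTTAAT, a part of the HNF1 motif, in 2 (5.88%) and 6.28%. The full cAMP response element (TGACGTCA, which contains TGACG), the estrogen-related receptor motif (TCAAGGTCA, which contains AAGGTCA) and the full HNF1 motif were in 0 of the 34. These letters describe the windows and nothing was drawn from them about any factor.

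The values are TPM, relative transcript abundances scaled for gene length and to a fixed total within each library. Depth was unknown, because TPM do not hold it, and no counting error can be given. Listed TPM summed to 989774 to 996064 per library, and Spearman correlations between libraries across genes were 0.971 to 0.988. The 34 genes together took between 0.0734% and 0.25% of the TPM in a library, and 63.4% to 72.5% of that came from *Umod*, *Fxyd2* and *Egf*. The glomerular markers *Podxl* and *Nphs1* averaged 3026 TPM ± 303 (SD, n = 5) and 765 ± 129 in control libraries. *Umod*, the thick ascending limb gene with the most RNA here, averaged 298 ± 73.2. The proximal tubule gene *Kap* averaged 3672 ± 2106, above *Podxl*. The markers of the labelled tissue were thus present at high levels in these libraries, and RNA of tubule cells was measured beside them.

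For the comparisons TPM were divided by a scaling factor per library (0.955 to 1.04), 0.5 was added and log2 was taken. Log2 fold changes are on that scale, which understates the change of genes with low TPM. Of the 34 genes, 28 reached 1 TPM in 4 or more libraries and were tested with limma among 14322 genes. A gene was called where its Benjamini-Hochberg adjusted p was under 0.05 and its log2 fold change was beyond 0.5 in either direction. The other 6 were too low to test. *Trpv5*, the apical calcium channel, stayed at or under 0.86 TPM in all libraries. The highest library reached 1.42 for *Scnn1g* (a sodium channel subunit), 0.895 for *Elf5* (a principal cell transcription factor), 0.976 for *Atp6v0d2* (a proton pump subunit), 1.06 for *Slc4a1* (the anion exchanger AE1, also found in red cells) and 1.52 for *Foxi1* (the transcription factor of intercalated cells).

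At day 1 the estimates for genes of all 4 segments lay above control in MN mice, and 1 gene passed the test. The fold change was above 0 for 28 of the 28 tested genes, against 49.2% of all genes. Their log2 fold changes ran from 0.04 to 1.49 around a median of 0.70, while the median of all genes was 0. Only *Pvalb* was called, where 0.0559% of all genes were called higher. The unadjusted p was under 0.05 with a higher level in 20 of the 28, against 7.23% of all genes. In 6 of the 28 (*Kcnj1*, *Slc12a3*, *Pvalb*, *Calb1*, *Scnn1a* and *Avpr2*) every day 1 library lay above every control library, which 0.908% of all genes showed. *Trpm6*, *Scnn1b*, *Avpr2*, *Atp6v1g3* and *Slc26a4* reached 1 TPM in 4 or more libraries only with their day 1 libraries counted. Their places in these counts, and in those between the MN groups, thus depended on the day 1 libraries. Among the untested genes the day 1 mean lay below the control mean only for *Foxi1* (0.339 and 0.484 TPM). The 28 genes share their libraries, so they are not 28 separate observations, and they were chosen with earlier results of these data known. In bulk RNA, a difference in the number of cells of a type and a difference in RNA per cell cannot be told apart.

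At day 5 the estimates lay on both sides of control and no gene passed. Of the 28 genes, 12 had a fold change above 0 (49.3% of all genes did) and 16 below, around a median of -0.05 on the log2 scale. By limma 0 were called, where 2.42% of all genes were called higher and 0.789% lower. The unadjusted p was under 0.05 for 2 of them, both lower (*Aqp2* and *Atp6v1g3*), against 9.06% of all genes. Between the MN groups, all 28 genes had a lower estimate at day 5 than at day 1, where 51.3% of all genes had a higher one. The log2 differences ran from -1.39 to -0.21 around a median of -0.82, and 20 of the 28 had an unadjusted p under 0.05 with a lower level, against 7.72% of all genes. *Pvalb*, *Calb1* and *Aqp2* were called lower, where 0.398% of all genes were, and in 15 of the 28 every day 5 library lay below every day 1 library, against 4.93% of all genes. The comparisons of day 5 with day 1 and of day 1 with control share the day 1 libraries, so a high day 1 library enters both.

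**Figure D1:**
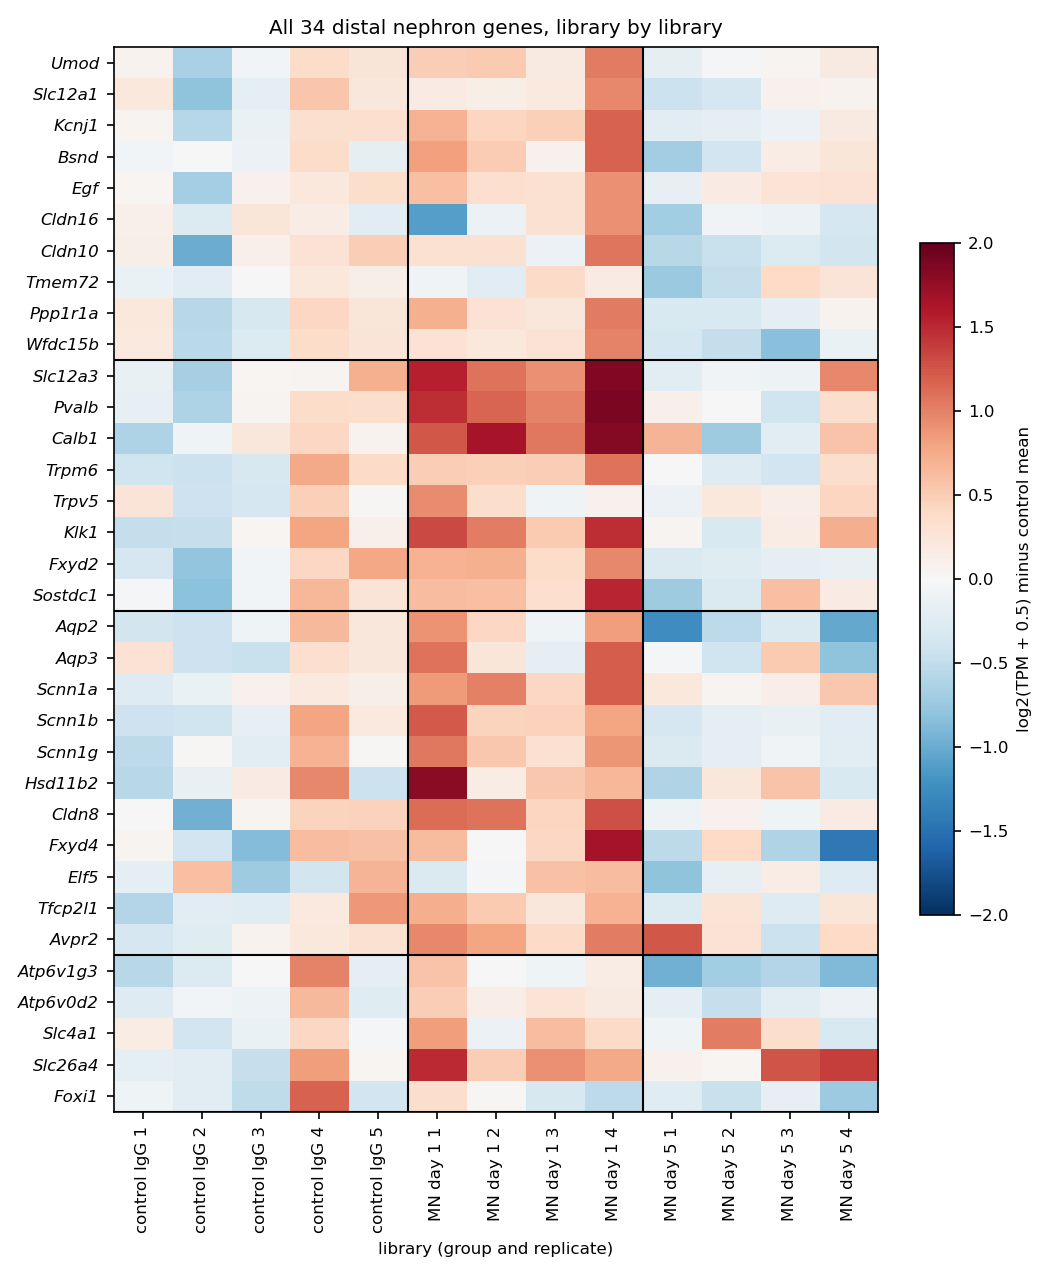
Each row is a gene, grouped by segment (thick ascending limb, distal convoluted and connecting tubule, principal cell and collecting duct, intercalated cell), and each column a library. Colour is log2(TPM + 0.5) minus the control mean, and the day 1 columns are mostly red, with MN day 1 replicate 4 the highest of all 13 libraries for 20 of the 34 genes.

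The libraries were not alike within groups. MN day 1 replicate 4 was the highest of the 13 libraries for 20 of the 34 genes and MN day 1 replicate 1 for 6. Control replicate 2 was the lowest of the 13 for 14 of the 34 genes, and also for 15 of 18 proximal tubule genes. Control replicate 4 was the highest control for 24 of the 34 genes. Control replicate 5 was the highest of the 13 for 12 of the 18 proximal tubule genes but for only 2 of the 34 genes described here.

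In the thick ascending limb, 10 of 10 genes were tested and all 10 had a fold change above 0 at day 1 (median log2 fold change 0.54). Of them 6 had an unadjusted p under 0.05 by limma, against 7.23% of all genes for a higher level. None was called, where 0.0559% of all genes were called higher. *Umod*, the most abundant protein of normal urine, was listed at 304.5, 184.9, 279.7, 374.2 and 347.2 TPM in control replicates 1 to 5. It was at 410, 415.9, 329.1 and 597 TPM in the day 1 MN libraries and at 253.6, 283.5, 299.6 and 327.1 TPM at day 5. The day 1 group overlapped with the controls through replicate 3, and its lowest library lay just above the highest day 5 library. The log2 fold change was 0.61 (SE 0.20) at day 1 (limma with Benjamini-Hochberg adjustment, adjusted p = 0.268), 0.03 at day 5 (adjusted p = 0.956) and -0.57 between day 5 and day 1 (adjusted p = 0.198).

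*Egf*, the epidermal growth factor precursor made in the thick ascending limb and distal convoluted tubule, was listed at 114.8, 69.9, 118.2, 129 and 143 TPM in control libraries, 169.6, 140.8, 137.7 and 211.2 at day 1, and 99.7, 125.6, 135.2 and 136.4 at day 5. Control replicate 5 lay above 2 of the 4 day 1 libraries. At day 1 the log2 fold change was 0.58 (SE 0.19, adjusted p = 0.268, limma with Benjamini-Hochberg adjustment).

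*Kcnj1*, the potassium channel ROMK, which is shared with principal cells, was the thick ascending limb gene with the lowest p at day 1. Its TPM were 11.3, 7.14, 9.82, 13.7 and 13.8 in controls, 17.8, 14.8, 15.2 and 25.1 at day 1 and 9.28, 9.53, 9.93 and 12.4 at day 5. All 4 day 1 libraries lay above all others. The log2 fold change was 0.73 (SE 0.20) at day 1 (limma with Benjamini-Hochberg adjustment, adjusted p = 0.214) and -0.78 (SE 0.21) between day 5 and day 1 (adjusted p = 0.073).

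*Wfdc15b*, which encodes a small secreted protein of the WAP family, had the lowest p of the segment for day 5 against control and for day 5 against day 1. It was at 81.2, 48.5, 58.2, 91.5 and 84.3 TPM in controls, 86.6, 82.1, 86.4 and 140.5 at day 1 and 55.1, 50.6, 39.6 and 64.7 at day 5. Day 1 replicate 4 stood apart from the other 3, and all day 5 libraries lay below all day 1 libraries. The fitted log2 change was 0.49 (SE 0.22, adjusted p = 0.387) at day 1, -0.41 (SE 0.22, adjusted p = 0.32) at day 5 and -0.90 (SE 0.23, adjusted p = 0.0607) between the days, by limma with Benjamini-Hochberg adjustment.

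The remaining thick ascending limb genes spanned a wide range of levels. *Slc12a1*, the transporter that defines the segment, averaged 46.9 TPM ± 15.2 (SD, n = 5) in controls, 59.4 ± 19.0 (n = 4) at day 1 and 40.7 ± 7.66 at day 5. Its day 1 mean rested on replicate 4 at 87.9 TPM, since the other 3 day 1 libraries were at 48.5 to 51.3, within the control range of 25.4 to 65.7. The smallest log2 fold changes of day 1 were those of *Cldn16*, a paracellular magnesium pore (0.04), and *Tmem72*, a transmembrane protein (0.11). *Bsnd*, the chloride channel subunit barttin, was at 0.69, *Ppp1r1a*, an inhibitor of protein phosphatase 1, at 0.61 and *Cldn10*, a paracellular sodium pore, at 0.44. None of these was called.

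**Figure D2:**
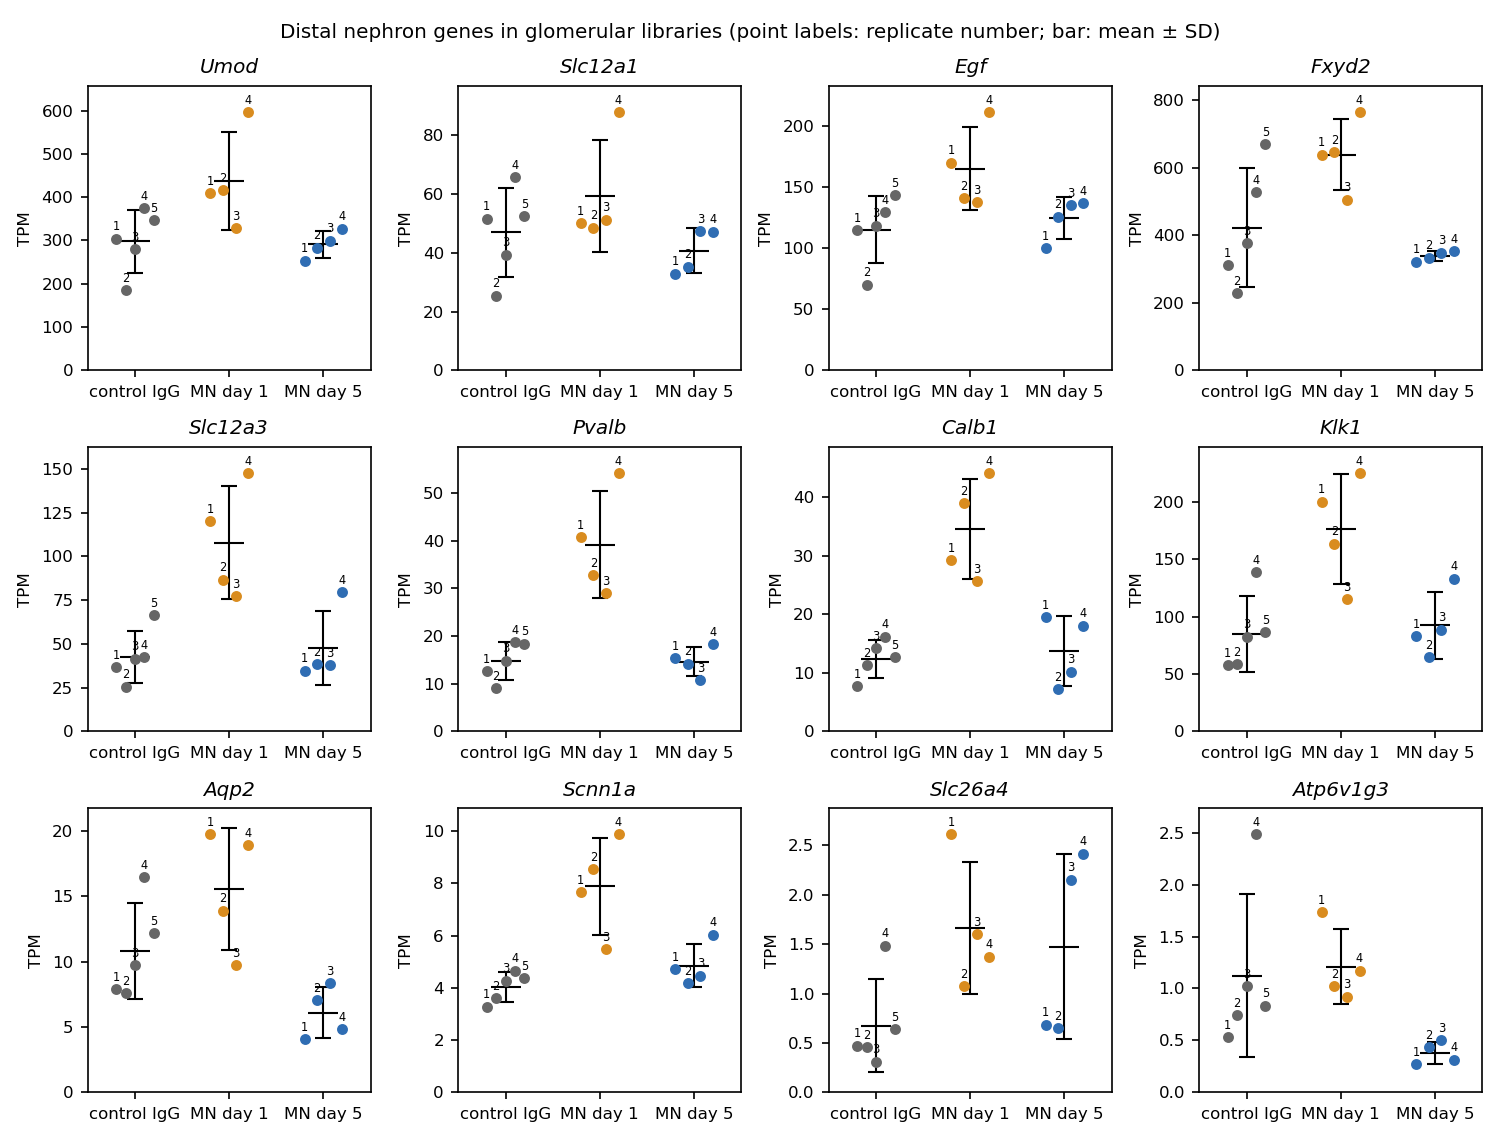
TPM of 12 genes in each library, with replicate numbers beside the points and bars for the mean and SD of each group (5 control, 4 MN day 1 and 4 MN day 5 libraries). The *Pvalb* libraries of day 1 (28.9 to 54.2 TPM) lie above all others, while those of *Slc12a1* overlap with the controls except for replicate 4 at 87.9.

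The distal convoluted and connecting tubule had the largest day 1 median of the 4 segments, at a log2 fold change of 1.13 over 7 tested genes. All 7 had an unadjusted p under 0.05 by limma, against 7.23% of all genes for a higher level. Of the 7, 1 was called, where 0.0559% of all genes were called higher. In 3 (*Slc12a3*, *Pvalb* and *Calb1*) the groups did not overlap, which 0.908% of all genes showed. The median was 0.54 in the thick ascending limb, 0.76 in principal cells and the collecting duct, and 0.57 for the 2 intercalated cell genes tested. No test compared these medians. A second list of genes of the same segments, described below, did not give this order. Its day 1 median was 0.31 for the distal convoluted and connecting tubule, 0.44 for the thick ascending limb and 0.67 for intercalated cells. The lists were short and hold genes that more than 1 segment expresses, such as *Kcnj1*, *Bsnd*, *Egf* and *Fxyd2*.

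*Pvalb*, parvalbumin of the early distal convoluted tubule, lies at chr15:78075314-78091149 in GRCm39. It was listed at 12.6, 9.13, 14.9, 18.6 and 18.4 TPM in control replicates 1 to 5, at 40.7, 32.7, 28.9 and 54.2 TPM in day 1 replicates 1 to 4, and at 15.3, 14.2, 10.7 and 18.3 TPM in day 5 replicates 1 to 4. The lowest day 1 library was above every control and every day 5 library, and the day 5 range lay within the control range. The log2 fold change was 1.43 (SE 0.24, 2.69-fold) at day 1 with an adjusted p of 0.0395, and -1.38 (SE 0.25) between day 5 and day 1 with an adjusted p of 0.00846 (limma with Benjamini-Hochberg adjustment). At day 5 against control it was 0.05 (SE 0.24, adjusted p = 0.949).

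The day 1 call of *Pvalb* was near the threshold. Leaving out each library in turn gave log2 fold changes of 1.26 to 1.57 and adjusted p between 0.0122 and 0.139, under 0.05 in 3 of 13 cases (without control replicate 5, day 1 replicate 3 or day 5 replicate 3). Between day 5 and day 1 the adjusted p stayed under 0.05 in 13 of 13, at 0.00336 to 0.0319. Proximal tubule genes also had higher estimates at day 1, and with the proximal tubule marker score as a covariate, the *Pvalb* difference was 1.01 at day 1 (adjusted p = 0.272) and -0.95 between the days (adjusted p = 0.139).

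*Calb1*, calbindin, which carries calcium through connecting tubule cells, lies at chr4:15881155-15908085 and had the largest day 1 fold change of the 28 genes. Its TPM were 7.68, 11.3, 14.2, 16.2 and 12.6 in controls, 29.3, 39.0, 25.7 and 44.2 at day 1 and 19.5, 7.16, 10.2 and 18 at day 5. All day 1 libraries were above all others. At day 1 the log2 fold change was 1.49 (SE 0.29), with an adjusted p of 0.0982 that missed the threshold, and between day 5 and day 1 it was -1.39 (SE 0.31, adjusted p = 0.0313, limma with Benjamini-Hochberg adjustment). Without day 1 replicate 1, 2 or 4, or without day 5 replicate 2 or 3, the call between the days was lost, with adjusted p up to 0.0969 over all libraries left out in turn.

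*Klk1*, tissue kallikrein of the connecting tubule, was listed at 57.6, 58.3, 82.6, 138.5 and 86.2 TPM in controls, 200, 163.5, 115.1 and 225 at day 1, and 83.0, 64.5, 88.5 and 132.9 at day 5. Control replicate 4 lay above day 1 replicate 3, so the groups overlapped. The log2 fold change at day 1 was 1.13 (SE 0.27, adjusted p = 0.178, limma with Benjamini-Hochberg adjustment). Kallikrein genes form a family of near-identical copies, and how reads were split among them was not tested.

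*Fxyd2*, the gamma subunit of the sodium-potassium pump, had the highest TPM of the 34 genes and is also made in other tubule segments. Its TPM were 312.0, 227.9, 377.2, 526.9 and 670.4 in controls, 639.0, 645.3, 505.9 and 765.4 at day 1 and 322.1, 333.4, 348.6 and 353.7 at day 5. Control replicate 5, the library highest in proximal tubule genes, lay above 3 of the 4 day 1 libraries, and the day 5 libraries were close together. The fitted log2 change was 0.73 (SE 0.25, adjusted p = 0.297) at day 1 and -0.91 (SE 0.27, adjusted p = 0.107) between day 5 and day 1, by limma with Benjamini-Hochberg adjustment.

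*Slc12a3* (chr8:95055829-95094170) is given in full because it defines the segment, and it was chosen after its values were seen. Its TPM were 36.6, 25.5, 41.6, 42.3 and 66.4 in controls, 120.1, 86.7, 77.1 and 147.7 at day 1 and 34.7, 38.5, 37.9 and 79.5 at day 5. Every day 1 library lay above every control, and day 5 replicate 4 reached the level of day 1 replicate 3 while the other 3 lay within the control range. The log2 fold change was 1.40 (SE 0.29, adjusted p = 0.13) at day 1 and -1.22 (SE 0.31, adjusted p = 0.0591) between day 5 and day 1 (limma with Benjamini-Hochberg adjustment). *Sostdc1*, a secreted inhibitor of BMP and Wnt signals, had a log2 fold change of 0.81 at day 1, and *Trpm6*, the magnesium channel of this segment, of 0.66. Neither was called, and *Trpm6* was at only 1.1 to 1.93 TPM at day 1.

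**Figure D3:**
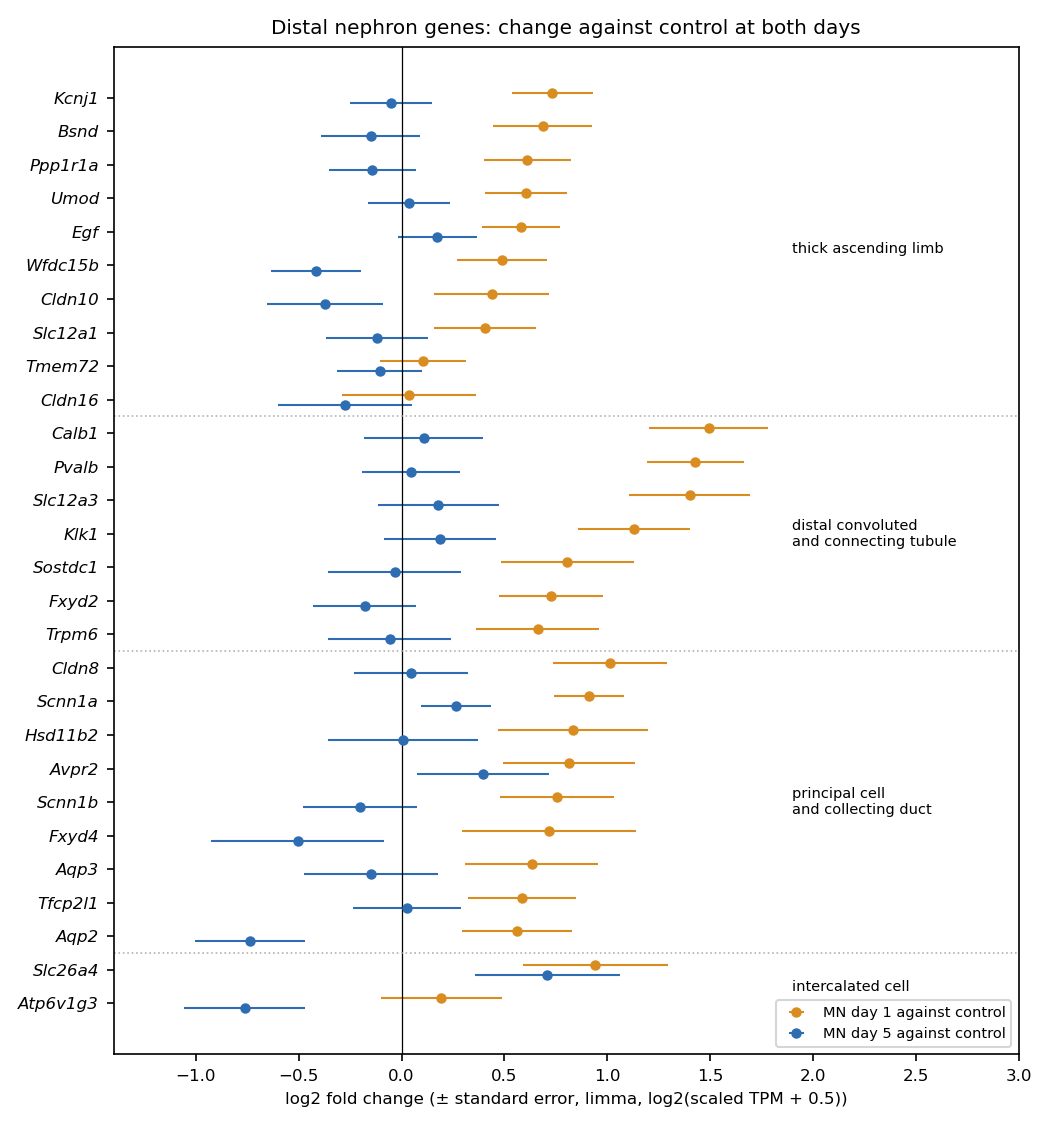
Log2 fold change with its limma standard error for the 28 tested genes, by segment, at day 1 (orange) and day 5 (blue) against the same 5 control libraries. All 28 orange points lie above 0, with *Calb1* (1.49), *Pvalb* (1.43) and *Slc12a3* (1.40) farthest to the right, and the blue points lie on both sides of 0, from -0.76 (*Atp6v1g3*) to 0.71 (*Slc26a4*).

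In principal cells and the collecting duct, 9 of 11 genes were tested. At day 1 all 9 had a fold change above 0. Of them 6 had an unadjusted p under 0.05, against 7.23% of all genes for a higher level. By limma 0 were called, where 0.0559% of all genes were called higher. *Aqp2*, the vasopressin-controlled water channel (chr15:99476936-99485016), was at 7.92, 7.62, 9.75, 16.5 and 12.2 TPM in controls, 19.8, 13.9, 9.72 and 18.9 at day 1 and 4.09, 7.05, 8.34 and 4.86 at day 5. Day 1 libraries spread across the control range and beyond it, while all 4 day 5 libraries lay below all 4 day 1 libraries and 3 of them also below all controls. On the log2 scale the fold change was 0.56 (SE 0.27, adjusted p = 0.41) at day 1, -0.74 (SE 0.27, unadjusted p = 0.016, adjusted p = 0.135) at day 5 and -1.30 (SE 0.28, adjusted p = 0.0286) between the days, by limma with Benjamini-Hochberg adjustment. The last call held in 8 of 13 fits without a library, with adjusted p up to 0.0917, and was lost without day 1 replicate 1, 2 or 4 or day 5 replicate 1 or 4.

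*Scnn1a*, the alpha subunit of the epithelial sodium channel, was even among controls at 3.28, 3.61, 4.28, 4.66 and 4.36 TPM. It was at 7.66, 8.53, 5.48 and 9.89 TPM at day 1, above all controls, and at 4.71, 4.17, 4.46 and 6.03 TPM at day 5. The log2 fold change at day 1 was 0.91 (SE 0.17, 1.88-fold), with an adjusted p of 0.0846 that missed the threshold (limma with Benjamini-Hochberg adjustment). The beta subunit *Scnn1b* was at 0.449 to 1.68 TPM in controls, 1.22 to 2.47 at day 1 and 0.501 to 0.648 at day 5, and the untested gamma subunit *Scnn1g* at 0.143 to 1.00, 0.637 to 1.43 and 0.257 to 0.376. For both, the control range reached into the day 1 range through replicate 4, and the day 5 libraries lay below all day 1 libraries.

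The other collecting duct genes had day 1 log2 fold changes between 0.59 and 1.02 and none was called. The tight junction gene *Cldn8* was highest at 1.02, followed by *Hsd11b2*, the enzyme that inactivates glucocorticoids in mineralocorticoid target cells, at 0.83. *Hsd11b2* was carried by day 1 replicate 1 at 14 TPM, where the other 3 day 1 libraries were at 4.10 to 6.08 and control replicate 4 at 7.55. *Avpr2*, the vasopressin V2 receptor, was at 0.265 to 0.695 TPM in controls and 0.761 to 1.47 at day 1 without overlap, but at 0.218 to 1.79 at day 5. *Fxyd4*, a pump regulator of the collecting duct, was at 0.72, *Aqp3*, the basolateral water channel, at 0.63 and *Tfcp2l1*, a collecting duct transcription factor, at 0.59.

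The summed TPM of the intercalated cell genes was the lowest of the 4 segments, and only 2 of 5 genes could be tested. Both passed the filter on low TPM only with their day 1 libraries counted. *Slc26a4*, the chloride and bicarbonate exchanger pendrin, was at 0.472, 0.46, 0.31, 1.49 and 0.642 TPM in controls, 2.62, 1.07, 1.61 and 1.37 at day 1 and 0.685, 0.650, 2.15 and 2.42 at day 5. Control replicate 4 stood above the other controls and within the day 1 range, and the day 5 libraries fell into a high and a low pair. The fitted log2 change was 0.94 (SE 0.35, adjusted p = 0.321) at day 1 and 0.71 (SE 0.35, adjusted p = 0.286) at day 5 (limma with Benjamini-Hochberg adjustment).

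*Atp6v1g3*, a subunit of the proton pump found in intercalated cells, was at 0.530, 0.741, 1.02, 2.49 and 0.836 TPM in controls, 1.73, 1.02, 0.920 and 1.17 at day 1 and 0.270, 0.434, 0.505 and 0.314 at day 5. All day 5 libraries lay below all control and all day 1 libraries, which 5.71% of all genes showed against the controls. At day 5 its log2 fold change was -0.76 (SE 0.29, unadjusted p = 0.0221, adjusted p = 0.162, limma with Benjamini-Hochberg adjustment). Control replicate 4 also led the untested *Foxi1* at 1.52 TPM, where the other controls were at 0.125 to 0.336, and *Atp6v0d2* at 0.976, where they were at 0.293 to 0.414. At these levels a few reads may set a value, and the files give no counts to show how many.

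Summed over its genes, each segment was compared library by library, as a description with no test. Thick ascending limb genes summed to 589 TPM ± 145 (SD, n = 5) in controls, 841 ± 212 (n = 4) at day 1 and 555 ± 62.4 (n = 4) at day 5. Distal convoluted and connecting tubule genes summed to 582 ± 219, 1005 ± 202 and 512 ± 66.0. Principal cell genes summed to 36.3 ± 11, 60.9 ± 18 and 29.8 ± 4.58, and intercalated cell genes to 3.03 ± 2.21, 4.43 ± 1.54 and 2.81 ± 0.872. Day 1 over control was thus 1.43, 1.73, 1.68 and 1.46 in these 4 segments, and day 5 over day 1 was 0.66, 0.51, 0.49 and 0.635.

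The sums overlapped between day 1 and control in every segment. The distal convoluted sums of day 1 were 1037, 974.6, 758.8 and 1250 TPM, and only control replicate 5 (859.6) among the controls lay above the lowest of them. Most of these 2 sums was *Fxyd2*, at 670.4 TPM in control replicate 5 and 505.9 in day 1 replicate 3. Without *Fxyd2* the mean sum of the segment was 159 TPM in controls and 366 at day 1. Between day 5 and day 1 the sums did not overlap in the first 3 segments and overlapped for intercalated cells. Without control replicate 4, the intercalated ratio of day 1 over control was 2.16 in place of 1.46, and the groups no longer overlapped. Without day 1 replicate 4 the ratios were 1.25, 1.59, 1.53 and 1.53 in the order above.

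**Figure D4:**
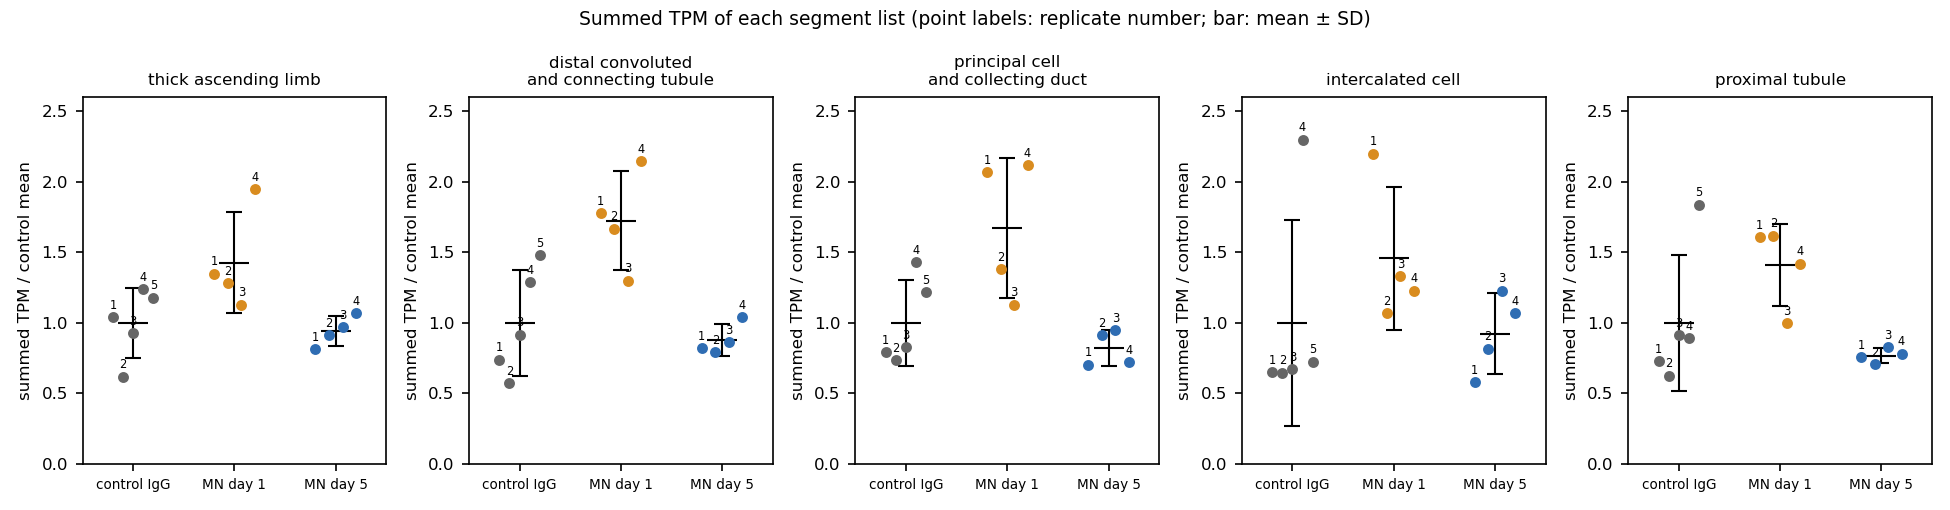
Summed TPM of each list in each library, divided by the mean of the 5 control libraries, with replicate numbers and bars for the group mean and SD. Day 1 means lie at 1.43, 1.73, 1.68, 1.46 and 1.41 from left to right, and control replicate 4 in the intercalated panel (2.30) and control replicate 5 in the proximal panel (1.84) stand above the other controls.

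Proximal tubule genes had values of the same direction. Their 18 genes summed to 3802 to 5541 TPM in control replicates 1 to 4 and to 11180 in control replicate 5. They summed to 9768, 9855, 6064 and 8632 TPM at day 1 and 4601, 4294, 5043 and 4744 at day 5. The ratio of day 1 to control was 1.41, or 1.79 without control replicate 5, which was the highest of all 13 libraries. All 18 had a fold change above 0 at day 1 (median log2 fold change 0.75) and all 18 were below 0 between day 5 and day 1 (median -0.77). At day 1, 13 had an unadjusted p under 0.05 by limma, against 7.23% of all genes for a higher level. Of the 18, 0 were called at day 1, where 0.0559% of all genes were called higher. In the fit with the marker score as a covariate, 0 of the 28 distal genes were called in any comparison. That score was the mean of these 18 genes and itself differed between the groups, so the fit cannot separate it from the group. The part of proximal tubule content in the distal values was not tested.

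Summed markers of other cells moved less or otherwise, and a sum can hide a single gene. Summed podocyte markers stood at 0.941 of control at day 1 and 0.992 at day 5, glomerular endothelial markers at 0.962 and 1.09, mesangial and juxtaglomerular markers at 0.987 and 1.18, parietal epithelial markers at 1.14 and 1.18, and leukocyte markers at 1.17 and 1.12. Thin limb markers stood at 1.12 and 1.06. Macula densa markers, which belong to the cells at the end of the thick ascending limb, were low, with sums of 8.84 to 15.3 TPM over all libraries, at 1.18 and 1.05 of control. The control and day 1 means were 5.14 and 6.83 TPM for *Ptger3*, also read as a thick ascending limb gene, and 2.76 and 3.18 for *Avpr1a*. They were lower at day 1 for *Nos1* (0.628 and 0.594), *Ptgs2* (1.08 and 0.862) and *Pappa2* (0.399 and 0.303), so the ratio of 1.18 did not hold for each marker. Erythroid markers went the other way, with a ratio of 0.59 at day 1 over control and 2.09 at day 5 over day 1, and their sums of 92.6 to 473.4 TPM overlapped between groups. The part of these cell types in the distal values was not tested.

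Whether the segments moved in proportion was examined with ratios of 1 defining gene to another within each library, which do not depend on the scaling of the library. The pairs were chosen after the data were seen, and 15 exact two-sided permutation tests were adjusted together. *Slc12a3* over *Slc12a1* was 0.709, 1.00, 1.06, 0.643 and 1.27 in controls, 2.4, 1.79, 1.5 and 1.68 at day 1 and 1.05, 1.09, 0.800 and 1.69 at day 5. The day 1 ratio was higher in 4 of 4 libraries than in any control, by 2.00-fold (exact permutation test, p = 0.0159, adjusted p = 0.0795). Against the proximal transporter *Slc34a1*, *Slc12a3* was 0.171 to 0.262 in controls and 0.274 to 0.404 at day 1, again without overlap (1.57-fold, exact permutation p = 0.0159, adjusted p = 0.0795).

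For *Aqp2* the ratios of day 1 and control overlapped. *Aqp2* over *Slc12a1* was 0.154 to 0.300 in controls and 0.190 to 0.396 at day 1 (1.13-fold, exact permutation p = 0.556), and *Slc12a3* over *Aqp2* was 1.78-fold higher at day 1 than in controls without overlap (exact permutation p = 0.0159, adjusted p = 0.0795). Without day 1 replicate 3 or 4 the unadjusted p of this last ratio was 0.0536 (exact permutation). At day 5 *Aqp2* over *Slc34a1* was 0.0226 to 0.0422, below the day 1 range of 0.0440 to 0.0535 (0.644-fold, exact permutation p = 0.0286, the smallest that 70 splits allow, adjusted p = 0.102). None of the 15 ratios passed after adjustment. Unequal ratios say that the genes of a pair changed unequally, not which of them changed.

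**Figure D5:**
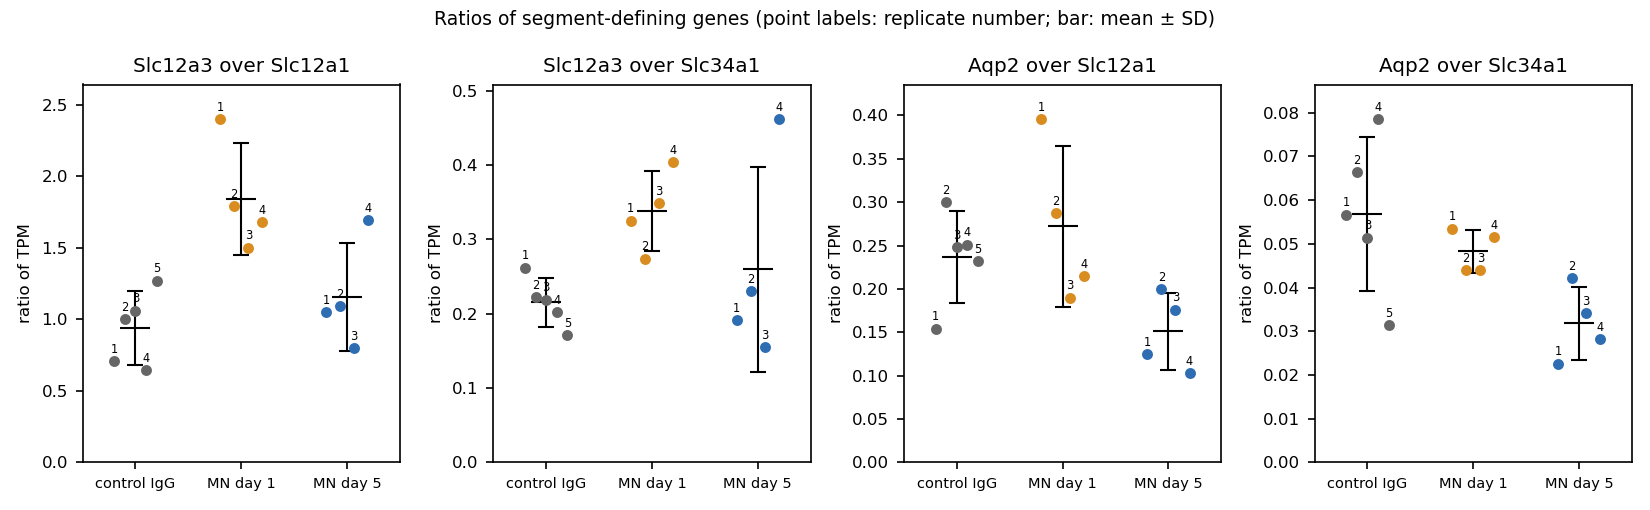
Ratio of the TPM of 2 genes in each library, with replicate numbers and bars for the group mean and SD. *Slc12a3* over *Slc12a1* and over *Slc34a1* is higher in every day 1 library than in every control, while *Aqp2* over either gene overlaps between day 1 and control.

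A second list of 48 genes known from the same segments, which holds no gene of the 34, was read for comparison, and 39 of them were tested. At day 1, 31 were above 0 and 8 below, with a median log2 fold change of 0.38, and 0 were called by limma. The segments differed, with a median of 0.44 for the thick ascending limb and 0.31 for the distal convoluted and connecting tubule. It was 0.67 for intercalated cells. For principal cells and the collecting duct it was -0.16, with 4 genes above 0 and 5 below. At an unadjusted p under 0.05, 12 were higher and 1 lower, against 1036 and 763 of all 14322 genes. Between day 5 and day 1, 33 were below 0 (median -0.45) and 3 were called lower, where 0.398% of all genes were. *Kcnj10*, the basolateral potassium channel of the distal convoluted tubule, was at 1.45 to 2.78 TPM in controls, 3.0 to 4.82 at day 1 and 1.38 to 2.35 at day 5, with a log2 fold change of -0.98 between the days (adjusted p = 0.0249, limma with Benjamini-Hochberg adjustment). *Rhcg*, an ammonia channel of the collecting duct, was at 0.861 to 3.42, 3.30 to 6.28 and 1.18 to 1.54 TPM, with -1.33 between the days (adjusted p = 0.028). When a library was left out, the call for *Kcnj10* held in 7 of 13 fits (adjusted p up to 0.0876) and was lost without day 1 replicate 1, 2 or 4 or day 5 replicate 1, 2 or 3. That for *Rhcg* held in 6 of 13 (up to 0.0914) and was lost without day 1 replicate 1, 2 or 4 or any day 5 library.

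The genes with the most RNA in this second list included some that glomerular cells also express. The highest were *Sgk1*, a kinase that regulates sodium transport, at 1272 TPM in controls, *Gata3*, a transcription factor also made in mesangial cells, at 283 and *Wnk1*, a kinase upstream of NCC, at 190. Their log2 fold changes at day 1 were 0.24, -0.20 and -0.08. *Ckb*, brain-type creatine kinase, was at 106 TPM (0.14), *St6gal1*, a sialyltransferase, at 85.4 (-0.17), *Car2*, carbonic anhydrase II, at 31.6 (0.67) and *Atp6v0a4*, a proton pump subunit, at 8.02 (0.88), none of them called at day 1. At day 5 against control *Slc8a1*, the sodium and calcium exchanger, was called higher (0.55, adjusted p = 0.0447) and *Krt7*, a keratin of simple epithelia, was called lower (-0.89, adjusted p = 0.00145), by limma with Benjamini-Hochberg adjustment. These were 1 higher and 1 lower of 39 tested genes, where 2.42% of all genes were called higher and 0.789% lower. The call for *Slc8a1* held in only 2 of 13 fits without a library, those without day 1 replicate 2 or day 5 replicate 1 (adjusted p up to 0.117), and in 7 of the 12 other alternatives (up to 0.13). The call for *Krt7* held in 13 of 13. *Krt7* fell from 71.9 to 104.3 TPM in controls and 71.3 to 82.7 at day 1 to 34.9 to 65.4 at day 5, and its log2 fold change at day 1 was -0.17 (adjusted p = 0.647, limma with Benjamini-Hochberg adjustment). It averaged 88.1 TPM in controls, where *Aqp2* averaged 10.8, and the cells that its RNA came from were not tested.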

How the data were processed

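Glomerular RNA of 5 control mice, 4 MN mice at day 1 and 4 at day 5 was sequenced, 1 library per sample. Per the labels, reads were handled with FastQC 0.11.9, Trimmomatic 0.39 and kallisto 0.46.2 against GRCm39, and the authors deposited TPM, 1 value per gene symbol and library. TPM are scaled for length and within each library. Counts were not used here, so depth was unknown and no count test was run. The 34 genes and all lists were chosen with earlier results of these data known.

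Each library was scaled by its median ratio to the geometric mean over 15772 genes, and log2(scaled TPM + 0.5) was used. Genes that reached 1 TPM in 4 or more libraries (14322 of 35967) entered 1 fit over all 13 libraries with limma 3.58.1 in R 4.3.3 (eBayes with trend), with Benjamini-Hochberg adjustment per contrast. Calls needed an adjusted p under 0.05 and a log2 fold change beyond 0.5 in either direction, as in the study. The procedure was tested on simulated data. Nothing says that the libraries of a group came from separate litters or isolation days, so p-values measure the spread between these samples.

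Full statistics were given for genes called in any contrast, for the 2 of highest mean TPM in each segment and for the lowest unadjusted p in each segment and contrast. Of the second list, called genes and the 2 of highest mean TPM per segment were named, except for 1 gene that is not reported here. *Slc12a3* and other genes with single values were added after their values were seen. Ratios of genes were tested by exact permutation with scipy 1.17.1. Promoters were the 250 bases before the canonical transcript start of the GENCODE annotation of GRCm39, a later release than the one the authors used. Python 3.11.15 and matplotlib 3.10.9 made the plots.

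Alternatives were pseudocounts of 0.1 and 1, TPM without scaling, quantile normalization, other filters, eBayes without trend, only the compared groups, array quality weights, a block for the replicate number, a proximal tubule score as covariate, the adjusted p alone and leaving out each library. The leave-out fits of the gene ratios and of the ratios of sums were chosen after seeing the data.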

Additional observations from a re-analysis of the deposited data

Results flagged for a closer look

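In each group of 4 or 5 libraries, the gap between the highest or lowest library and its neighbour was set against the range of the group by Dixon's criterion. Of 117 groups checked, 10 held a library far from the others, where chance gives about 1 in 20 groups (5%). In 4 of them it was day 1 replicate 4, which was at 87.9 TPM for *Slc12a1* (48.5 to 51.3 in the other 3), 141 for *Wfdc15b* (82.1 to 86.5), 1.93 for *Trpm6* (1.1 to 1.12) and 11.6 for *Sostdc1* (4.8 to 5.94). Day 5 replicate 4 was at 79.5 TPM for *Slc12a3*, where the other 3 were at 34.7 to 38.5.

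The other 5 were control replicate 4 and the intercalated cell genes. That library was at 2.49 TPM for *Atp6v1g3* (0.529 to 1.02 in the other 4 controls), 0.976 for *Atp6v0d2* (0.293 to 0.414), 1.49 for *Slc26a4* (0.31 to 0.642) and 1.52 for *Foxi1* (0.125 to 0.336), and its intercalated sum was 6.99 TPM (1.97 to 2.20). Its *Aqp2* and *Hsd11b2*, at 16.5 and 7.55 TPM, were also the highest of the controls. These genes are read from the same library and are not separate observations.

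The change against control differed between day 5 and day 1 for 6 genes of both lists. This is the comparison of day 5 with day 1 already given, in which 0.398% of the 14322 genes tested were called lower, and it adds no further evidence. The log2 fold changes of day 5 and day 1 differed (limma, Benjamini-Hochberg adjusted) by -1.38 for *Pvalb* (adjusted p = 0.00846), -1.39 for *Calb1* (0.0313), -1.30 for *Aqp2* (0.0286), -1.33 for *Rhcg* (0.028), -0.98 for *Kcnj10* (0.0249) and -0.72 for *Krt7* (0.0159). *Pvalb* was itself called at day 1, *Krt7* was itself called at day 5 and the other 4 were called against control at neither day. When each library was left out in turn, the difference passed in 13 of 13 fits for *Pvalb*, 11 for *Krt7*, 8 for *Calb1*, 8 for *Aqp2*, 7 for *Kcnj10* and 6 for *Rhcg*.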

How the results depend on the processing

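Read counts, the day of each control mouse and the number of reads behind low values were not analysed here, so the precision of genes near 1 TPM, among them those of intercalated cells, is not known. The count of distal genes called was 1 at day 1, 0 at day 5 and 3 between day 5 and day 1. At day 5 it stayed 0 in every alternative run. At day 1 it was 0 with no filter on low TPM, with eBayes without trend, with a fit of only the compared groups and with the proximal tubule score as covariate, and 8 with the replicate block. Between the days it was 1 with no filter, 8 with only the compared groups, 8 with the replicate block and 0 with the proximal tubule score. Leaving out each library in turn gave 0 to 5 at day 1 and 1 to 8 between the days. The 5 came without control replicate 5 (*Pvalb*, *Calb1*, *Slc12a3*, *Scnn1a* and *Fxyd2*), 2 came without day 1 replicate 3, and 1 came without day 5 replicate 3. Between the days, 8 came without control replicate 2, 7 without control replicate 5, 6 without day 1 replicate 3 and 1 without day 1 replicate 1, 2 or 4. Over all genes, 13 were called at day 1, and up to 218 without a library. The cause was not tested. Replicate numbers did not pair the samples. Deviations from the group means correlated at -0.056 to 0.091 over 12 same-number pairs and at -0.143 to 0.146 over 44 others, and 2 of 13 libraries correlated best with their own number. Number 5 exists only in controls, so the block also takes control replicate 5 out of the contrasts with control, and the 5 genes called at day 1 without that library were among the 8 called with the block. No direction reversed for a called gene. The 28 genes stayed above 0 at day 1 and below 0 between the days under all 3 scalings. Of them 12, 9 and 8 were above 0 at day 5. In other alternatives some uncalled genes changed sign. The day 1 estimate fell to -0.12 for *Cldn10* and -0.03 for *Tmem72*, and to -0.27 for *Cldn16* when a library was left out. Between the days the estimate rose to 0.03 for *Tfcp2l1* and 0.001 for *Egf*. Without the gene of highest TPM in each segment, the sums in control, day 1 and day 5 libraries were 291, 403 and 264 TPM for the thick ascending limb, 159, 366 and 173 for the distal convoluted and connecting tubule, 25.5, 45.3 and 23.8 for principal cells and 2.36, 2.76 and 1.33 for intercalated cells. When a library was left out, the unadjusted exact permutation p at day 1 was at most 0.0357 for *Slc12a3* over *Slc12a1*, 0.0286 over *Slc34a1* and 0.0536 over *Aqp2*, and none of these ratios passed after adjustment with all libraries. In the second list, adjusted p between the days was 0.00199 to 0.0564 for *Krt7* (lost without day 1 replicate 4 or day 5 replicate 2), and *Kcnj10*, *Rhcg* and *Krt7* did not pass with the proximal tubule score.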
